A study of Mus musculus with 6 samples.

Results

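Slc2a4, Hk2, Pdk4, Eno3, Ugp2 and Ucp3 encode proteins that bring glucose into muscle, commit it to glycolysis or glycogen, and set whether pyruvate or fatty acid is burned. They were taken by name, and every array probe that the platform annotation gives to 1 of these symbols was used. This gave 7 probes for the 6 genes, among 16675 genes on the array. Eno3 had 2 probes and the 5 other genes had 1 each. The samples came from ob/ob mice (B6.V-Lepob/J), which lack functional leptin and become obese and insulin resistant, so MCSE and PBS animals share that mutation. After a fast of 4 h the mice were dosed orally with MCSE, an aqueous extract of Momordica charantia (bitter melon) seeds, or with phosphate-buffered saline (PBS), followed 15 min later by glucose at 1 g/kg into the peritoneum. Tissue was collected 4 h after the glucose. Muscle, liver and adipose tissue each gave 1 MCSE array and 1 PBS array, 6 in all. The labels did not give which muscle was taken, the age of the mice, or whether several mice were pooled. With 1 array per tissue and treatment, no difference between MCSE and PBS within a tissue could be tested, and none has a p-value. A treatment difference common to tissues was not tested.

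Glucose enters a muscle fibre through GLUT4, a transporter that insulin moves from internal vesicles to the surface, and is trapped inside as glucose 6-phosphate. From there it is stored as glycogen or broken down to pyruvate, and inside the mitochondrion the pyruvate dehydrogenase complex governs whether pyruvate becomes acetyl-CoA for oxidation. Fasting and fatty acids raise the kinase PDK4 and the mitochondrial carrier UCP3 in muscle, insulin lowers PDK4 transcript, and insulin raises hexokinase II transcript.

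Levels are given as log2 intensity on the scale deposited by the authors, on which all arrays had a median of 8.95. They serve to compare arrays for 1 probe and not genes with each other. The error gauge is the SD per probe, taken from the gap between the MCSE minus PBS differences of 2 probes for the same gene. It was 0.517 on the muscle pair (1504 genes with 2 measured probes) and 0.611 on the liver-labelled pair (1653 genes). Probe error and unequal transcripts enter it, whereas variation from mouse to mouse does not.

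The muscle arrays carried the transcripts of muscle. Of 15 fast-fibre genes, all but Tnni2 were measured on them, with a list median of 15.81 on the MCSE and 15.87 on the PBS muscle array, against at most 9.37 on any of the 4 other arrays. The liver-labelled arrays carried hepatocyte genes (median 12.73 with MCSE and 12.64 with PBS), white adipocyte genes (14.77 and 14.54) and kidney genes (13.30 and 11.97) together. They are therefore called liver-labelled throughout. The MCSE adipose array correlated with the MCSE liver array at 0.982 over all probes, while the PBS adipose array correlated with the others at 0.307 to 0.517. In such bulk samples, fewer cells of a type and less RNA per cell cannot be told apart.

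Each of the 6 genes was brighter in muscle than elsewhere. For 6 of 6, both muscle arrays lay above all 4 other arrays without overlap, as did 13.5% of all genes tested. With limma on the 2 muscle and the 2 liver-labelled arrays, 6 of 6 were called higher in muscle (2-fold or more, adjusted p below 0.05), against 9.71% of the 12475 genes tested. The 2 arrays of a label come from differently treated mice, so their spread includes any effect of MCSE. Ucp3 passed the filter on dim probes only through the muscle arrays, so its call uses the values that let it in. The other 5 genes passed that filter under both labels. When the 2 adipose-labelled arrays were added to the fit and shared in its estimate of the spread, 0 of 6 passed with limma. Of all 12475 genes tested, 47 were then called higher in muscle.

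**Figure D1:**
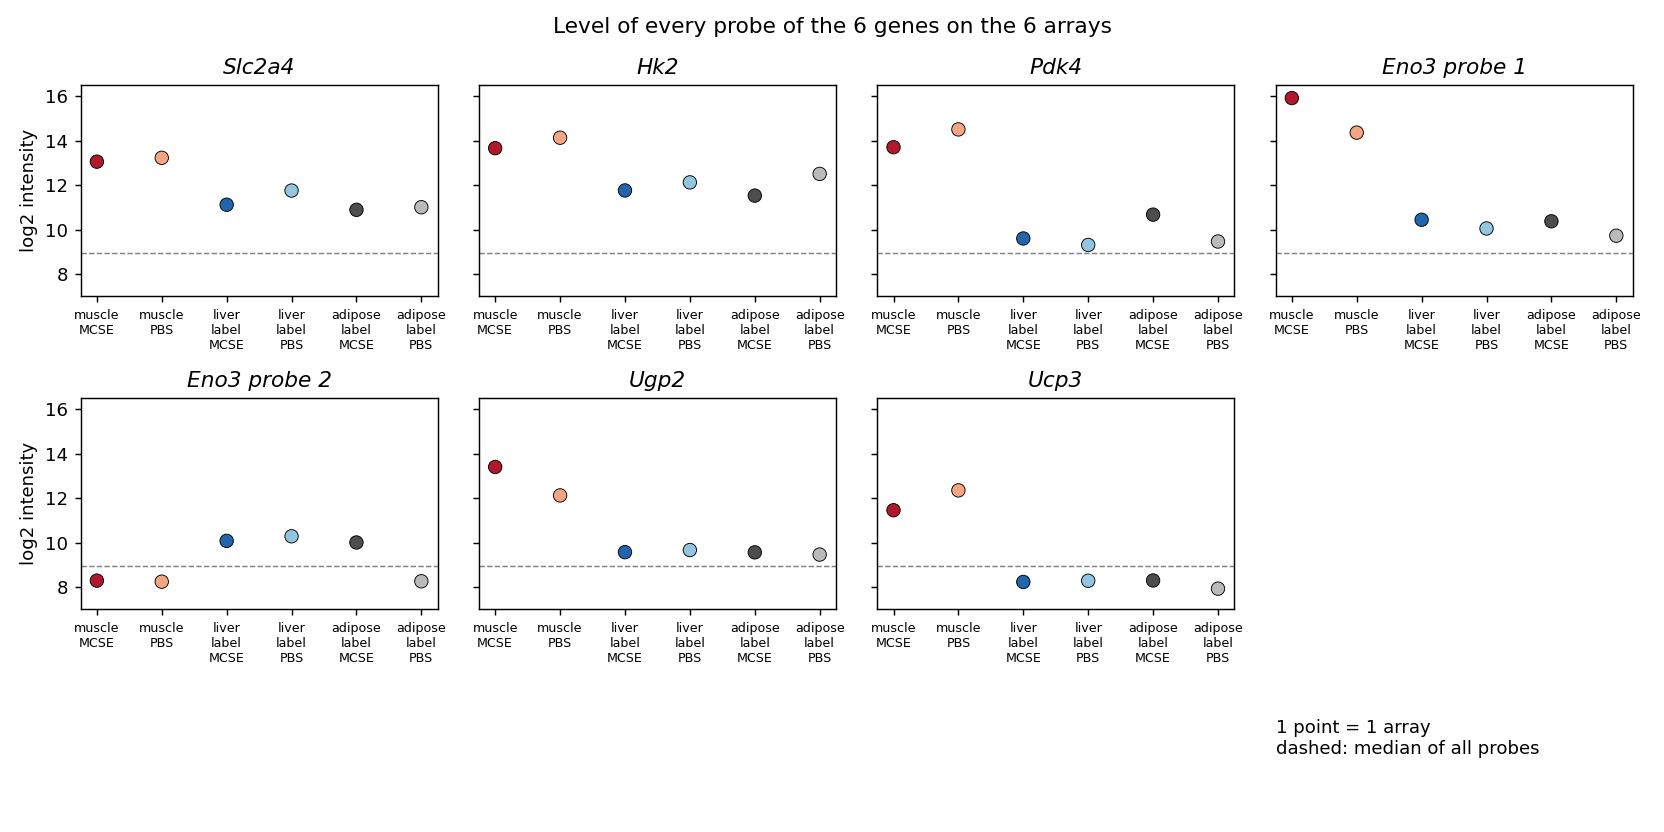
Log2 intensity (y axis) of each of the 7 probes on the 6 arrays (x axis), 1 point an array, with the median of all probes as a dashed line. On the brighter Eno3 probe and on the probes of the 5 other genes both muscle arrays lie above the other 4, whereas the dimmer Eno3 probe averages 8.27 in muscle and 10.18 on the liver-labelled arrays.

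Glucose entry was represented by Slc2a4, which encodes GLUT4, and Hk2, which encodes hexokinase II, the enzyme that phosphorylates glucose in muscle. The Slc2a4 probe read 13.05 on the MCSE and 13.22 on the PBS muscle array, 11.11 on the MCSE and 11.75 on the PBS liver-labelled array, and 10.89 on the MCSE and 11.00 on the PBS adipose-labelled array. The muscle arrays were the highest pair, and the liver-labelled MCSE array and both adipose-labelled arrays lay within 0.23 of each other. The MCSE minus PBS difference was -0.17 in muscle, smaller than the SD per probe, and -0.64 on the liver-labelled arrays, slightly beyond it. Adipocytes also make GLUT4. White adipocyte genes had a median difference of 0.18 in muscle and 0.65 on the liver-labelled arrays, where Slc2a4 was lower with MCSE. Heart and slow-fibre genes were lower there too, with medians of -1.44 and -1.33. Of those measured, 4 of 5 and 4 of 6 were 2-fold lower, against 6.01% of all genes. Fast-fibre genes had a median of -0.40 there, with 4 of 11 above 0. The part of these lists in the Slc2a4 and Hk2 values was not tested.

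Hk2 read 13.66 on the MCSE and 14.13 on the PBS muscle array, 11.76 on the MCSE and 12.12 on the PBS liver-labelled array, and 11.52 on the MCSE and 12.50 on the PBS adipose-labelled array. In muscle the difference was -0.47, within the SD per probe, and on the liver-labelled arrays it was -0.36, also within it. The adipose-labelled difference of -0.98 was within that pair's wider SD per probe of 1.74, and those 2 arrays correlated at only 0.322 over all probes. Slc2a4 and Hk2 had the smallest gaps between labels among the 6 genes. Slc2a4 was 1.70 ± 0.33 higher in muscle (SE, 2 arrays per label, adjusted p from limma 0.0147) and Hk2 1.95 ± 0.32 higher (adjusted p from limma 0.00867). Without the MCSE muscle array the limma adjusted p became 0.0992 for Slc2a4 and 0.0513 for Hk2, and without the PBS muscle array 0.113 and 0.086, so these calls need both muscle arrays.

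Glycogen synthesis was represented by Ugp2, UDP-glucose pyrophosphorylase, which makes the glucose donor used by glycogen synthase. Its probe read 13.40 on the MCSE and 12.12 on the PBS muscle array, 9.57 on the MCSE and 9.67 on the PBS liver-labelled array, and 9.56 on the MCSE and 9.46 on the PBS adipose-labelled array. The 4 arrays outside muscle lay within 0.21 of each other, so the MCSE muscle array stood above a PBS muscle array that was itself well above all the rest. The muscle difference was 1.28, a 2.43-fold higher intensity with MCSE and 2.47 times the SD per probe, while the liver-labelled difference was -0.10. Among 758 genes within 0.5 of the same brightness in muscle, 1.58% were further above 0. Ugp2 was 3.14 ± 0.45 higher in muscle than under the liver label (SE, adjusted p from limma 0.006).

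Glycolysis was represented by Eno3, the muscle form of enolase. The brighter of its 2 probes read 15.91 on the MCSE and 14.36 on the PBS muscle array, 10.44 on the MCSE and 10.05 on the PBS liver-labelled array, and 10.37 on the MCSE and 9.72 on the PBS adipose-labelled array. The muscle difference was 1.55, a 2.93-fold higher intensity with MCSE, and the liver-labelled difference was 0.39, within the SD per probe. On the MCSE muscle array 99.9% of all probes were dimmer than this one. Genes as bright as this rarely moved on the muscle pair. Of 129 genes within 0.5 of its mean brightness, 1.55% passed 2-fold, and 0 were further above 0 than Eno3. The SD of the difference among these genes was 0.379, against 0.552 over all genes measured in muscle. Whether the top of the intensity scale narrows differences in this range was not tested.

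The dimmer Eno3 probe showed another pattern. It read 8.29 on the MCSE and 8.24 on the PBS muscle array, 10.08 on the MCSE and 10.28 on the PBS liver-labelled array, and 10.01 on the MCSE and 8.26 on the PBS adipose-labelled array. Both muscle arrays read it below 8.95, the median probe, where a difference could hardly show, and its muscle difference was 0.05. Between labels the probes went opposite ways. Fitted over all 29922 probes, the brighter probe was 4.89 ± 0.64 higher in muscle (SE, adjusted p from limma 0.048) and the dimmer probe lower, at -1.91 ± 0.12 (adjusted p from limma 0.0259). The transcript that the dimmer probe detects is not named by the annotation. The Eno3 result in muscle therefore rests on 1 probe, and with the mean of both probes the difference was 0.80, below 2-fold. The gap between muscle and the liver label became 1.49 with that mean (adjusted p from limma 0.029), against 4.89 on the brighter probe.

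Fuel choice was represented by Pdk4, the kinase that phosphorylates and shuts off pyruvate dehydrogenase, and Ucp3, a mitochondrial carrier of muscle that accompanies fatty acid use. Pdk4 read 13.70 on the MCSE and 14.50 on the PBS muscle array, 9.60 on the MCSE and 9.31 on the PBS liver-labelled array, and 10.67 on the MCSE and 9.46 on the PBS adipose-labelled array. The muscle difference of -0.80 was 1.74-fold in favour of PBS and beyond the SD per probe, while the liver-labelled difference of 0.29 and the adipose-labelled difference of 1.21 were each within the SD per probe of their own pair. Of all measured genes in muscle, 3.36% lay lower. Pdk4 was 4.65 ± 0.36 higher in muscle than under the liver label (SE, adjusted p from limma 0.00111), the lowest adjusted p among the 6 genes.

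Ucp3 read 11.46 on the MCSE and 12.35 on the PBS muscle array, 8.23 on the MCSE and 8.29 on the PBS liver-labelled array, and 8.30 on the MCSE and 7.93 on the PBS adipose-labelled array. Outside muscle it never reached the median of all probes, so a difference there could hardly show, and the liver-labelled difference was -0.05. In muscle the difference was -0.89, 1.86-fold in favour of PBS, with 2.51% of measured genes lower. Ucp3 was 3.64 ± 0.37 higher in muscle than under the liver label (SE, adjusted p from limma 0.00232). That test uses the muscle values through which alone Ucp3 passed the filter on dim probes. Without the filter its adjusted p from limma was 0.024.

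Taken as a set, the muscle differences were mixed in sign. On the brightest probes 2 of 6 genes passed 2-fold, against 5.78% of the 10711 genes measured in muscle. Both were higher with MCSE (3.9% of all genes) and 0 were lower (1.88%). Pdk4, Ucp3, Eno3 and Ugp2, 4 of the 6, differed by more than the SD per probe, as did 21.9% of all genes measured. On the liver-labelled arrays 5 of the 6 were measured. Of these, 0 were 2-fold higher (8.27% of 11342 genes) or 2-fold lower (6.01%), and 1, Slc2a4, went beyond the SD per probe (36.3%). The median over the 6 genes was -0.32 in muscle, against -0.05 over all genes. No test of the difference between the muscle and the liver-labelled response was possible with 1 array per group.

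**Figure D2:**
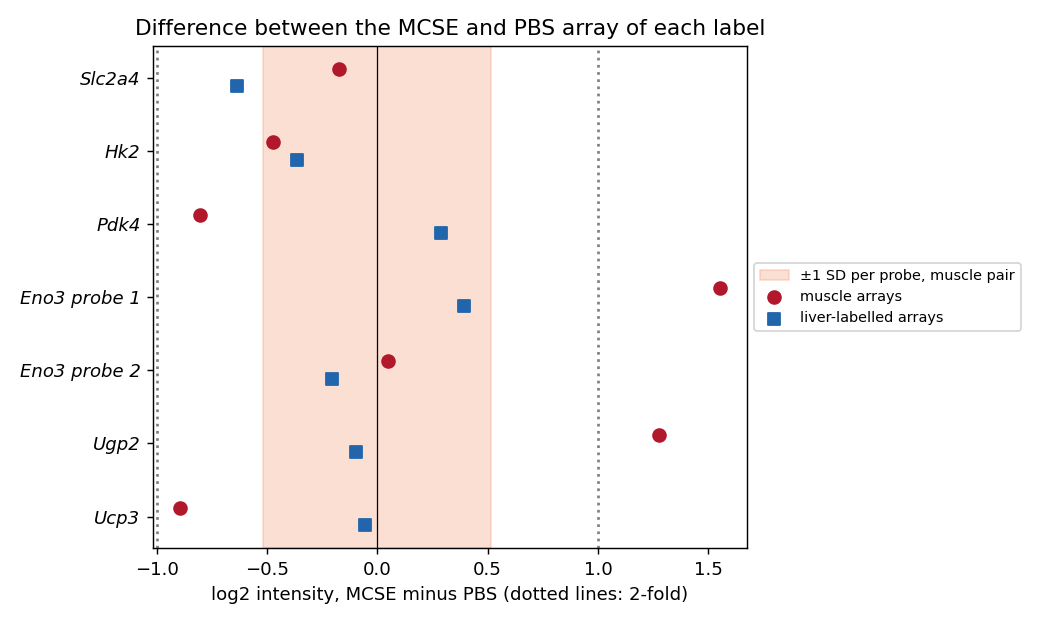
MCSE minus PBS difference in log2 intensity (x axis) for each probe (rows), with circles for the muscle pair and squares for the liver-labelled pair. The band is the SD per probe of the muscle pair (0.517) and the dotted lines mark 2-fold. Ugp2 and the brighter Eno3 probe lie beyond 2-fold in muscle, while Pdk4 and Ucp3 lie below the band.

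**Figure D3:**
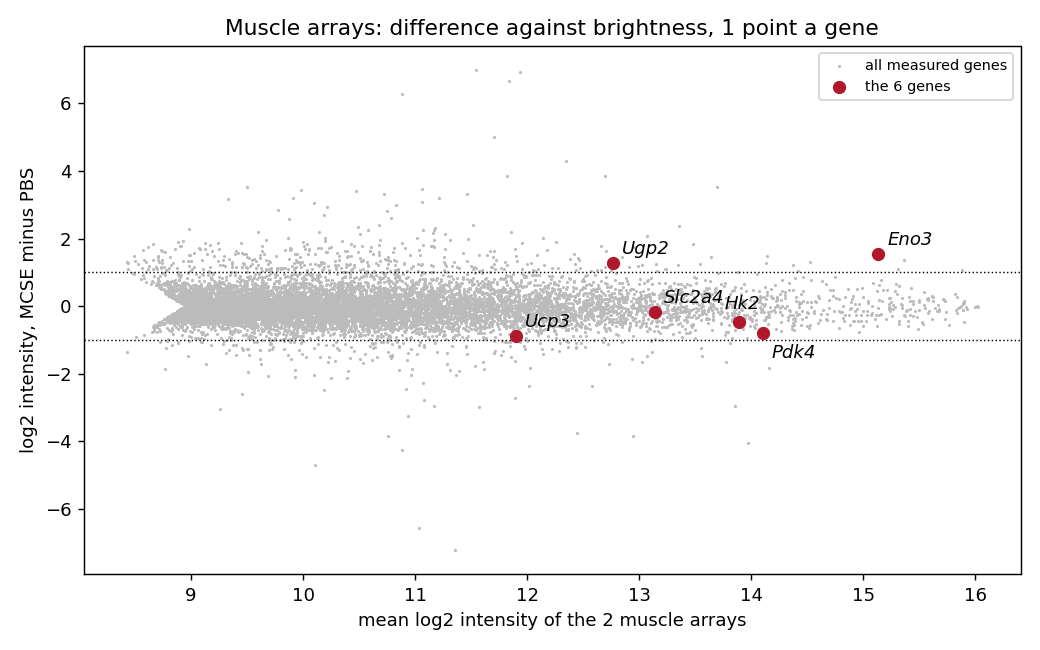
MCSE minus PBS difference in log2 intensity (y axis) against mean log2 intensity of the 2 muscle arrays (x axis) for the 10711 measured genes in grey and the 6 genes in red, with 2-fold as dotted lines. Eno3, at 1.55, stands in a bright range where few genes differ, Ugp2, at 1.28, lies above the 2-fold line, and the other 4 genes lie between the lines.

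Fibre-type genes and genes of other tissues also differed between the 2 muscle arrays. All 9 slow-fibre genes were higher with MCSE, with a median difference of 1.21. Of them 6 were 2-fold higher, against 3.9% of all genes measured in muscle. For fast-fibre genes the median was -0.04 and 0 of 14 went past 2-fold, against 5.78% of all genes. The fast-fibre list medians of 15.81 with MCSE and 15.87 with PBS lay near the top of the scale, where little room is left for a rise. Kidney genes had a median difference of 0.69 in muscle, with 2 of 9 being 2-fold higher (3.9% of all genes). The medians were -0.08 for hepatocyte genes, -0.47 for heart genes and 0.35 for macrophage genes. The median differences of brown adipocyte and proteasome genes were 0.46 and 0.23. The part of these shifts in the values of Eno3, Ugp2, Pdk4 and Ucp3 was not tested. On the MCSE and PBS muscle arrays, Kap, an abundant kidney transcript, read 12.81 and 9.61, and Alb, serum albumin of hepatocytes, 10.44 and 12.35. These 2 were the extremes of their lists, at 3.20 and -1.91. Of the genes measured in muscle, 7 of 9 kidney genes and 2 of 6 hepatocyte genes were above 0, with Cyp2e1 of hepatocytes at 0.42.

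The regions ahead of the transcription starts are shown for the genes that went furthest each way in muscle, Ucp3 and Pdk4 below 0 and Eno3 and Ugp2 above it. The RefSeq promoter table for GRCm38.p6 held 6 starts for 5 of the 6 genes, with 2 for Ugp2, and Slc2a4 was not among them. Each line gives the 250 bases before the start, 5′ to 3′ on the strand of the gene, with every CANNTG in capitals. This is the E-box, the core recognised by basic helix-loop-helix factors such as MyoD, and it reads the same on both strands.
Ucp3 (chr7:100472741-100472990, plus strand): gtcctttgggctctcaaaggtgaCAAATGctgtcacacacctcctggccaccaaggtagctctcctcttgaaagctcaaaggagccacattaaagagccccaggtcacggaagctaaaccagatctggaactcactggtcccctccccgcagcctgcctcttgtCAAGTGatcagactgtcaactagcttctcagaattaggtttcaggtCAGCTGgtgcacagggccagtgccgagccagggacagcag
Pdk4 (chr6:5496279-5496528, minus strand): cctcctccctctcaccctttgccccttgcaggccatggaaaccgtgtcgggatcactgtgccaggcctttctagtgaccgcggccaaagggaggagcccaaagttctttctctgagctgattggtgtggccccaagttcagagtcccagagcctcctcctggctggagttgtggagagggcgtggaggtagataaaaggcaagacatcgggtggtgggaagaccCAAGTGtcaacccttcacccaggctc
Eno3 (chr11:70656926-70657175, plus strand): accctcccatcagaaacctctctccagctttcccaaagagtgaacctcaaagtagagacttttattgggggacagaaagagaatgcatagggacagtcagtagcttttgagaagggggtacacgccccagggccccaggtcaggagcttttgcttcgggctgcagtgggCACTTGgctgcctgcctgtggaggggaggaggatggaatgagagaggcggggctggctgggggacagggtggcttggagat
Ugp2, upstream start (chr11:21371268-21371517, minus strand): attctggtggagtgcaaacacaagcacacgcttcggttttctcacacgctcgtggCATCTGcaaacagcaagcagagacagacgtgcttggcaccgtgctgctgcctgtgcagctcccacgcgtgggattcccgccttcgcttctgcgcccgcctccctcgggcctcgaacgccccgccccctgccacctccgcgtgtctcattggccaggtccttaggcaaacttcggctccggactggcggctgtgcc
Ugp2, downstream start (chr11:21370630-21370879, minus strand): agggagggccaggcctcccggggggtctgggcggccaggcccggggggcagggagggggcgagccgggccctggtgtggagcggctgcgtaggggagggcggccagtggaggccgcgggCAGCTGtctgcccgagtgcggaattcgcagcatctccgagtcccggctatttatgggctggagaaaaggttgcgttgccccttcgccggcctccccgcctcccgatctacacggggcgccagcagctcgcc

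CANNTG occurred in 5 of the 6 windows, and in 66.2% of the 32851 windows of the same length in the table. The Hk2 window, which is not printed, held none of the motifs searched. The form CAGCTG, which is part of the CANNTG count, occurred in 2 of the 6, ahead of Ucp3 (starting 40 bases before the start) and ahead of the downstream Ugp2 start (131 bases before), and in 13.0% of all windows. AGGTCA, the half-site of nuclear receptors such as the PPARs, was searched on both strands. It occurred ahead of Ucp3 at 149 and 44 bases before the start and ahead of Eno3 at 114 bases, in 2 of the 6 windows and in 14.0% of all. The AGGTCA at 44 bases in Ucp3 shares its last bases with the CAGCTG at 40 bases. These matches are letters in a window, and no binding was measured.

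The near relatives of the 6 genes had muscle differences between -0.58 and 0.97. Among the glucose transporters, Slc2a1, which encodes the widely made GLUT1, read 10.09 on the MCSE and 9.12 on the PBS muscle array, and 10.36 and 8.82 on the liver-labelled arrays. It was thus higher with MCSE under both labels, by 0.97 and 1.54, where Slc2a4 was at -0.17 and -0.64. Slc2a2, the GLUT2 transporter of hepatocytes and kidney tubules, read 8.20 and 7.97 in muscle and 12.13 and 11.72 on the liver-labelled arrays. It was lower in muscle, at -3.84 ± 0.30 (SE, adjusted p from limma 0.00114). Slc2a2 passed the filter on dim probes only through the liver-labelled arrays, so that test uses the values that let it in. With all probes fitted and no filter, its adjusted p from limma was 0.0244. Slc2a3, the GLUT3 transporter of neurons, was at -0.58 in muscle. Hk1, the hexokinase of most tissues, differed by -0.08 and 0.09 on its 2 probes in muscle. Hk3 was not matched to a probe.

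The pyruvate dehydrogenase kinases differed among themselves. Pdk2, the other main kinase of muscle, read 11.89 on the MCSE and 11.73 on the PBS muscle array, and was 2.45 ± 0.34 higher in muscle than under the liver label (SE, adjusted p from limma 0.0054). Its MCSE minus PBS difference was 0.16 in muscle and 0.70 on the liver-labelled arrays. Pdk1 (0.31) and Pdk3 (-0.30) differed in muscle by less than the SD per probe, and neither passed between labels (adjusted p from limma 0.301 and 0.116). Pdk4 was thus the kinase with the lowest muscle difference of the 4. Eno2, the neuronal enolase, and Ucp1, the uncoupling protein of brown fat, did not reach the median of all probes on either muscle array. Eno1 and Ucp2 were not matched to a probe.

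On the pyruvate oxidation list 11 genes other than Pdk4 were measured in muscle. Of these, 0 were 2-fold higher and 2 were 2-fold lower, against 3.9% and 1.88% of all genes measured. Their median was -0.21, with 4 above 0. The 2 were Pdha1, the catalytic subunit that Pdk4 phosphorylates, and Pcx, pyruvate carboxylase, which feeds pyruvate into oxaloacetate. Pdha1 read 12.34 on the MCSE and 13.81 on the PBS muscle array, a difference of -1.47, and 11.90 on the MCSE and 11.11 on the PBS liver-labelled array, a difference of 0.78. Pcx read 11.49 and 12.78 in muscle (-1.28) and 12.59 and 11.66 under the liver label (0.93). Kinase and target transcript were thus both lower on the MCSE muscle array. On the liver-labelled arrays 11 genes other than Pdk4 were measured, not all of them the same. They had a median of 0.70, with 0 past 2-fold, against 14.3% of all genes measured there.

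Ugp2 and Eno3 were alone in their lists in passing 2-fold, as 5.78% of all genes measured in muscle did. Of 19 other glycogen genes measured in muscle, 0 passed 2-fold in either direction, with differences between -0.43 and 0.44, a median of -0.15 and 3 above 0. Examples chosen after their values were seen are Gyg, glycogenin, the primer of glycogen (0.29), Pygm, the muscle glycogen phosphorylase (-0.38), and Ppp1r3c, which brings a phosphatase to glycogen (-0.26). Of 15 other glycolytic genes, 0 passed 2-fold on the brightest probe, with differences between -0.64 and 0.66, a median of 0.05 and 8 above 0. Other probes could differ. Pfkm and Tpi1, named after their values were seen, were at -0.39 and 0.66 on the brightest probe. On their other probes, which reached 13.18 and 11.17 in muscle, they were at -0.90 and -0.64. The enzymes on either side of enolase, also named after their values were seen, were Pgam2, the muscle phosphoglycerate mutase (0.05), and Pkm, pyruvate kinase (0.27). Their levels were high on the MCSE and PBS muscle arrays, at 15.26 and 15.20 for Pgam2 and 14.53 and 14.26 for Pkm.

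**Figure D4:**
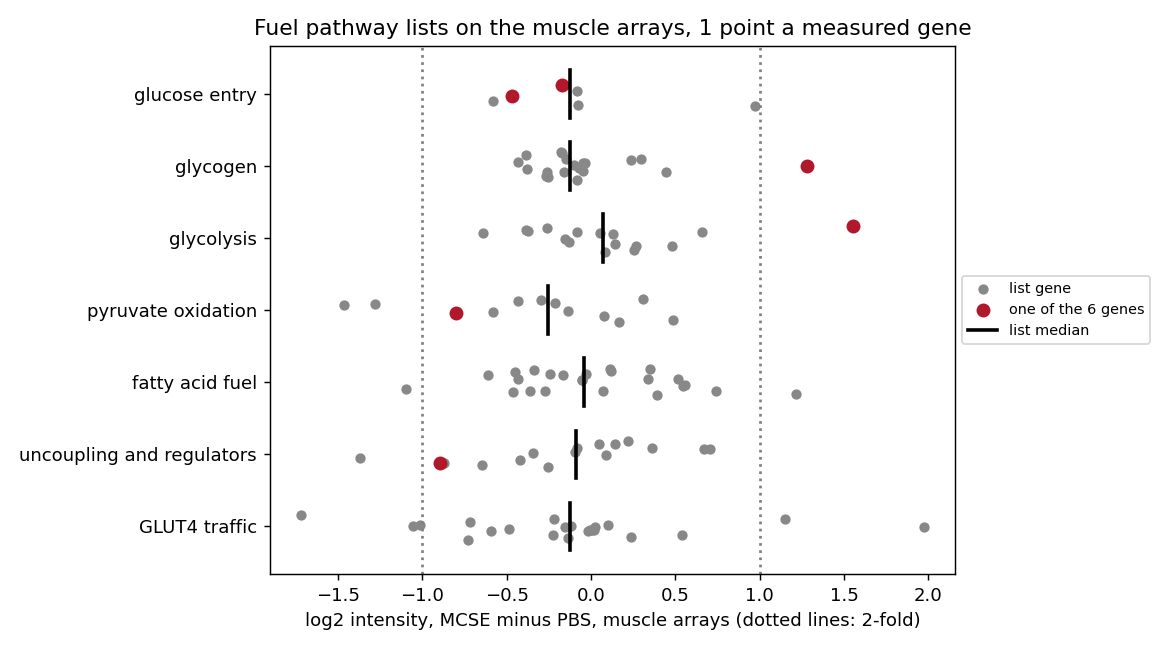
MCSE minus PBS difference in log2 intensity on the muscle arrays (x axis) for the measured genes of 7 fuel pathway lists (rows), 1 point a gene, the 6 genes in red, list medians (the 6 genes included) as black bars and 2-fold as dotted lines. Ugp2 and Eno3 lie beyond 1 while the other genes of their lists stay between -0.64 and 0.66, and 2 pyruvate oxidation genes lie below Pdk4.

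Regulators and fatty acid genes showed single genes past 2-fold. Among all genes measured in muscle, 3.9% were 2-fold higher and 1.88% 2-fold lower. Of 15 regulators measured beside Ucp3, 0 were 2-fold higher and 1 was 2-fold lower, with a median of -0.08. This was Mef2c, a muscle transcription factor that also acts on the GLUT4 gene, at 12.43 on the MCSE and 13.80 on the PBS muscle array (-1.37) and at -0.69 on the liver-labelled arrays. These counts use the probe that was brightest over all 6 arrays. Foxo3, a transcription factor of the fasting response named after its values were seen, was at 0.22 on that probe and at 2.12 on its other probe, which reached 12.12 in muscle. Of 24 fatty acid genes, 1 was higher and 1 lower, with a median of -0.04. Plin2 (Adfp on the array), a lipid droplet coat, differed by 1.22 in muscle and by -0.41 under the liver label, and Fabp3, the fatty acid carrier of muscle and heart, at -1.10 in muscle and -1.15 on the liver-labelled arrays. Of 22 measured genes of insulin signalling and GLUT4 traffic, 2 were 2-fold higher and 3 were lower, with a median of -0.13. Of the 4 furthest from 0, Socs3, an inhibitor of insulin and cytokine receptors, was at 1.97 in muscle, 1.70 on the liver-labelled and 1.90 on the adipose-labelled arrays. Lnpep, the aminopeptidase that travels with GLUT4, was at 1.15 in muscle (0.24 on its next probe, which was dim). Its 0.88 on the liver-labelled arrays came from values below the median of all probes, so it did not count as measured there. Cbl, an adaptor, differed by -1.72 in muscle and by -0.31 under the liver label, and Pik3r1, a subunit of PI 3-kinase, at -1.06 and 0.08. Exoc7, a subunit of the exocyst named after its values were seen, was at -0.01 in muscle on the probe used and at -1.40 on its other probe, which reached 11.62. Of 4 measured glucose entry genes beside Slc2a4 and Hk2, 0 passed 2-fold.

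Between labels, glycolytic and glycogen genes were the lists with most calls. Of 15 glycolytic genes other than Eno3, 9 were higher in muscle and 2 lower with limma, and of 21 glycogen genes other than Ugp2, 9 were higher and 3 lower, against 9.71% higher and 15.1% lower among all genes tested. The pyruvate oxidation list had 3 of 12 higher and 0 lower (limma) besides Pdk4, and the regulators 2 of 18 higher and 0 lower (limma) besides Ucp3. The fatty acid list had 7 of 24 higher and 3 lower, GLUT4 traffic 4 of 26 and 1, and glucose entry, apart from Slc2a4 and Hk2, 0 of 6 and 2. Some list genes passed the filter on dim probes through 1 label only. Examples are Slc2a2 and Slc2a5 through the liver label, and Phka1, Phkg1, Slc16a3 and Cpt1b through muscle. Calls on such genes use the values that let them in, so these counts are descriptive.

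Genes whose profile over the 6 arrays lay nearest to each of the 6 were found by the root mean square distance of centred log2 intensities, among genes with a mean at or above the median. The gene nearest to Slc2a4 was Map2k3, a stress kinase of the p38 pathway, at a distance of 0.04, with 13.23 on the MCSE and 13.45 on the PBS muscle array and a difference of -0.60 on the liver-labelled arrays. Next came 2310014G06Rik (0.15) and Mgat5 (0.17). For Hk2 these were Zfp92 (0.08), Nos1 (0.14) and Grp (0.14), and for Ugp2 Trp63 (0.18), BC048679 (0.24) and Schip1 (0.31). Ucp3 lay nearest to Pdk4, at 0.50, ahead of Itgb1bp3 (0.51) and 2310042D19Rik (0.52). The genes nearest to Ucp3 were Dusp26 (0.24), 1110003O08Rik (0.27) and 2900005J15Rik (0.30). For Eno3 they were Ak1, the adenylate kinase of muscle (0.42), Abra, an actin-binding protein of muscle (0.43), and 2300005B03Rik (0.45). Of these 3, Abra (1.21) and 2300005B03Rik (1.06) were 2-fold higher with MCSE in muscle, as were 3.9% of all genes measured there, while Ak1 was at 0.23. The distance includes both muscle arrays, so likeness in the muscle difference is built into the choice of these genes.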

How the data were processed

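Total RNA was amplified, labelled with Cy5 and hybridised to single-colour arrays, per the labels' protocols. The authors deposited linear intensities of 29922 probes on 6 arrays. The submitters' processing notes name limma, with no version or role, and the background correction and normalization are not given in the sources used here. All columns had the same distribution (sorted log2 values within 0.038 of their median), which assumes equal distributions in all tissues. No detection calls were used. Of all probes, 21020 had 1 symbol in the platform annotation, 8902 none and 0 several. List genes were matched through RefSeq synonyms.

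Values below 214.2, the 5th percentile, were set to that floor before taking log2. A gene was represented by its brightest probe over the 6 arrays, and counted as measured in a label if either array of the pair showed it at or above the median probe. Muscle was set against the liver label in limma 3.58.1 under R 4.3.3 (lmFit, eBayes, Benjamini-Hochberg, 4 arrays, 2 residual degrees of freedom). The code was run on simulated data with independent noise of the same size for every gene and no effect of MCSE. That run is no check on the calls made here. The adipose-labelled arrays were left out because they differed in kind. Python 3.11.15, numpy 2.4.6, pandas 2.3.3, statsmodels 0.14.6 and matplotlib 3.10.9 were used. Precision is limited by the number of arrays. The 6 genes, the 7 pathway lists and the marker lists were chosen with earlier results of these data known. Genes named were the 6, their relatives, up to 4 genes past 2-fold per list, the 3 nearest profiles and those said to be named after their values were seen. Kap, Alb, Tnni2, Foxo3 and Exoc7 were named after their values were seen.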

Additional observations from a re-analysis of the deposited data

Results flagged for a closer look

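Pdha1 and Pcx differed in opposite directions under the 2 labels, each by more than the SD per probe of its pair. The muscle minus liver-label gap of the MCSE minus PBS differences was -2.25 for Pdha1 and -2.21 for Pcx, and it was not tested. Each gene had 1 probe.

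The adipose-labelled pair served only as description beside the other pairs, and 3 probes of these gene families were brighter on its MCSE array by more than the SD per probe of that pair (1.74). Slc2a2 was 4.21 higher there, Slc2a1 2.03 and the dimmer Eno3 probe 1.74. In the other direction, the dimmer Hk1 probe was at -2.48. Hepatocyte genes had a median of 12.81 on the MCSE and 8.84 on the PBS adipose-labelled array, and kidney genes 13.13 and 10.37. Their part in these values was not tested.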

How the results depend on the processing

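Quantile normalization, centring, a lowess trend, no floor and 32 added before log2 moved 0 of the 6 muscle differences by more than the SD per probe. Most of these settings could hardly move them, so they are no check on the differences. The arrays already shared 1 distribution, and centring shifts every gene by the same 0.05. The probes used read at least 2808 in muscle, far above the floor of 214.2 and the added 32. With the mean over all probes Eno3 moved to 0.80, which left 1 of the 6 genes 2-fold higher in muscle, and its gap between labels was 1.49 (limma adjusted p 0.029). At a 3-fold threshold 0 were higher, and at 1.5-fold 2 were lower in muscle and 1 on the liver-labelled arrays. All genes higher in muscle numbered 1016 at 1.5-fold and 124 at 3-fold, and genes lower 847 and 52. On the liver-labelled arrays these were 2275 and 281 higher, and 2093 and 108 lower. Between labels, the fit on all 6 arrays gave 47 genes higher and 0 lower with limma (533 lower at an unadjusted p under 0.05) and 0 of the 6 genes, at unchanged differences (Slc2a4 1.70, Hk2 1.95, Pdk4 4.65, Eno3 4.89, Ugp2 3.14, Ucp3 3.64) and limma adjusted p values between 0.0636 (Pdk4) and 0.51 (Slc2a4). Its spread includes that of the adipose-labelled pair. With all probes fitted, Slc2a4 (1.70, limma adjusted p 0.0621) and Ugp2 (3.14, 0.0634) no longer passed, leaving 4 of the 6. Genes higher in muscle numbered 1870 with treatment as a term, 782 with all probes and 742 without the filter. Leaving out 1 array at a time gave 324 to 1515 genes higher and 385 to 2141 lower, and 4 to 6 of the 6 genes higher. The lowest counts came without a muscle array (324 and 385 without MCSE, 341 and 403 without PBS). The differences then ranged from 1.39 to 2.02 for Slc2a4, 1.72 to 2.19 for Hk2, 4.25 to 5.05 for Pdk4, 4.11 to 5.67 for Eno3, 2.50 to 3.78 for Ugp2 and 3.20 to 4.09 for Ucp3. The filter at the upper quartile kept all counts within 1.5 times. No paired analysis was possible of MCSE against PBS within a label because each group had 1 array, whereas the fit with treatment as a term pairs the muscle and liver-labelled arrays by treatment and called 6 of the 6 genes. Ucp3 and the dimmer Eno3 probe were limited by low signal, the first outside muscle and the other in it.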
